A study of Mus musculus with 6 samples.

Results

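Cadherins and protocadherins were followed as 1 gene family in the E16.5 lateral ganglionic eminence (LGE), the primordium of the striatum. Members were all protein-coding genes of the deposited table whose symbol starts with *Pcdh*, or with *Cdh* and a digit, which gave 83 of 15168 genes. They comprised 3 type I classic cadherins, 11 type II classic cadherins, the single further cadherin *Cdh13*, 56 clustered protocadherins (14 *Pcdha*, 21 *Pcdhb* and 21 *Pcdhg*) and 12 other protocadherins. All 83 passed the filter on low values, which kept genes at 0.5 CPM or more (CPM, the reads of a gene scaled to a common library size) in at least 3 libraries. Of 92 protein-coding genes with such symbols in GENCODE M21, 9 were not matched and were not analysed here: *Cdh3*, *Cdh15* to *Cdh19*, *Cdh23*, *Cdh26* and *Pcdhb1*.

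Bulk RNA-seq compared 3 *Dlx5/6-CIE; Rosa-Sp9-OE/+* libraries (overexpression) with 3 *Dlx5/6-CIE* libraries (control), from LGE of littermates on a mixed background. Both groups carry *Dlx5/6-CIE*, a transgene that expresses Cre and EGFP and is active in LGE progenitors. The overexpression group also carries 1 copy of *Rosa-Sp9-OE*, in which Cre removes a LacZ-STOP cassette so that the *Sp9* coding sequence is expressed from the *Rosa26* locus. The methods give a minimum of 3 animals for an experiment but do not tie each library to 1 embryo, and the p-values rest on library-to-library spread alone.

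Cadherins are calcium-dependent adhesion proteins of the cell surface. Classic cadherins bind the same kind of cadherin on the next cell and, through catenins inside the cell, the actin cytoskeleton, and in the embryonic forebrain they hold radial glia together at the ventricle and sort neurons into nuclei. Clustered protocadherins are expressed in different combinations in single neurons and let a neuron tell its own branches from those of others, while the other protocadherins are better known for adhesion, axon growth and circuit assembly.

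*Cdh8* and *Pcdh17* were among 31 members with their highest value in control library 1, and *Pcdh10* was among the steadiest members. The promoter sequences of these genes are shown as examples and do not stand for the family. Each is the 200 bases before the RefSeq transcription start (GRCm38.p6), 5′ to 3′ on the gene's strand. Capitals mark the GC box (GGGCGG, or CCGCCC on the other strand), the sequence that Sp family proteins are known to bind.
*Cdh8*, chr8:99416472-99416671, minus strand: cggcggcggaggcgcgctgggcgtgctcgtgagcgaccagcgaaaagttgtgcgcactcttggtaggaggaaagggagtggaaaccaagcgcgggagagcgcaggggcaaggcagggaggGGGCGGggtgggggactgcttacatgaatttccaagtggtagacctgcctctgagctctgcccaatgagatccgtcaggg
*Pcdh17*, chr14:84443363-84443562, plus strand: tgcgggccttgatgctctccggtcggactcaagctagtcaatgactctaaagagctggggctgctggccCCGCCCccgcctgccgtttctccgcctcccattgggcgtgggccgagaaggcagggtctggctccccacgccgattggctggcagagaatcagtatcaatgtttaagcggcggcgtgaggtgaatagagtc
*Pcdh10*, chr3:45378198-45378397, plus strand: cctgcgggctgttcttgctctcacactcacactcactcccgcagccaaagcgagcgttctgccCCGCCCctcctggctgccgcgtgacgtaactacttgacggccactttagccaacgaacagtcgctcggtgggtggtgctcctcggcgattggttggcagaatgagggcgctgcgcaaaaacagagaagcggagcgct

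The GC box was counted in promoters of 300 bases (250 before and 50 after the start), on both strands. The RefSeq promoter set used here had 21 such promoters for 18 member genes. It had none for the 56 clustered protocadherins. *Cdh1*, *Cdh2*, *Cdh4*, *Cdh5*, *Cdh11*, *Cdh13*, *Pcdh1*, *Pcdh11x* and *Pcdh12* were not in it either, so the count does not cover the family. Of the 21, 8 held at least 1 GC box, against 35.7% of all 32851 mouse promoters in the set. The promoters of *Cdh8*, *Pcdh17* and *Pcdh10*, printed above, are among these 8. *Cdh9*, *Cdh10*, *Cdh12*, *Pcdh7*, *Pcdh9* and *Pcdh15* were also highest in control library 1 but held no GC box. *Pcdh19*, highest in that library too, held 1. The homeodomain core TAATTA, which reads the same on both strands, was in 1 of the 21, a *Cdh7* promoter, against 5.29% of all promoters. A match is only a match of letters, and no binding was measured.

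*Sp9* itself had 178, 268 and 305 CPM in overexpression libraries 1, 2 and 3, against 130, 147 and 170 CPM in control libraries 1, 2 and 3. The groups did not overlap, with a log2 fold change of 0.72 ± 0.19 (SE). The adjusted p was 0.788 from limma, 0.805 from edgeR and 0.00669 from DESeq2. The 3 overexpression libraries had 1.37 to 2.33 CPM of *Xist*, against 2227, 2191 and 2.35 CPM in control libraries 1, 2 and 3, so sex differs within the control group and between groups. Depth was 21767904 to 25126847 reads in listed genes per overexpression library and 19410365 to 22174028 per control library. Markers of LGE and striatal neurons, such as *Dlx1*, *Gad1* and *Foxp1*, summed to 4065 to 4730 CPM in overexpression libraries and 3767 to 4094 CPM in control libraries. Markers of cortical pyramidal neurons summed to 48.8, 46.6 and 32.6 CPM in overexpression libraries, against 105, 50.9 and 11.7 CPM in control libraries 1, 2 and 3, and all 8 of them were highest in control library 1. The 6 microglia markers summed to 263, 195 and 68.5 CPM in overexpression libraries, against 238, 317 and 288 CPM in control libraries, and the 5 radial glia markers to 1663 to 1925 CPM against 1842 to 2195 CPM.

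No cadherin or protocadherin passed an adjusted p of 0.05 between overexpression and control LGE (0 of 83), by limma on log2(CPM + 0.5), by edgeR or by DESeq2. The lowest adjusted p of any member was 0.788 by limma, 0.805 by edgeR and 0.584 by DESeq2. Over all 15102 genes tested, the background was 0.0265% by limma (4 genes), 0.0331% by edgeR (5 genes) and 0.225% by DESeq2 (34 genes). Before adjustment, 10 members had a p under 0.05 and were higher in overexpression libraries, and 0 were lower, against 2.68% of all genes higher and 2.84% lower. edgeR gave 12 and 0 and DESeq2 11 and 0, but the matching shares of all genes were not worked out for these tools. The 6 libraries did not overlap for 12 members, all higher in overexpression libraries, against 5.46% of all genes higher and 5.73% lower, and the remaining 71 members overlapped. In tissue as mixed as this, a change in the number of cells of a type and a change of RNA per cell cannot be told apart.

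By value, meaning the sign of the limma log2 fold change, 64 members were higher and 19 lower in overexpression libraries. Among all genes, 7575 were higher and 7527 lower. edgeR gave 59 members higher and 24 lower, beside 7329 and 7773 of all genes. DESeq2 gave 61 and 22, beside 7506 and 7596 of all genes. The counts and medians by subfamily are a description, and differences between subfamilies were not tested. *Pcdhb* had 20 of 21 members higher with a median log2 fold change of 0.18, *Pcdhg* 20 of 21 with 0.11, *Pcdha* 9 of 14 with 0.09, and the other protocadherins 9 of 12 with 0.05. Classic cadherins had 5 of 14 higher and medians of -0.14 for type I and -0.05 for type II. The median over all genes was 0.0005. edgeR and DESeq2 each gave 18 of 21 *Pcdhg* and 8 of 14 *Pcdha* genes higher, and 19 and 20 of 21 *Pcdhb* genes. Genes of 1 cluster share a locus and, in *Pcdha* and *Pcdhg*, exons, so their counts are not independent of each other. These counts moved with single libraries. Without control library 1, 74 of 83 members were higher, among them 9 of the 14 classic cadherins and 13 of 14 *Pcdha*. Without control library 2, 49 of 83 were higher, among them 5 of 14 *Pcdha* and 14 of 21 *Pcdhg*, and without overexpression library 3, 55 of 83 were. Without control library 1, 17 members had an unadjusted p under 0.05 in the higher direction and 1 in the lower, beside 7.41% and 6% of all genes in that fit.

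**Figure D1:**
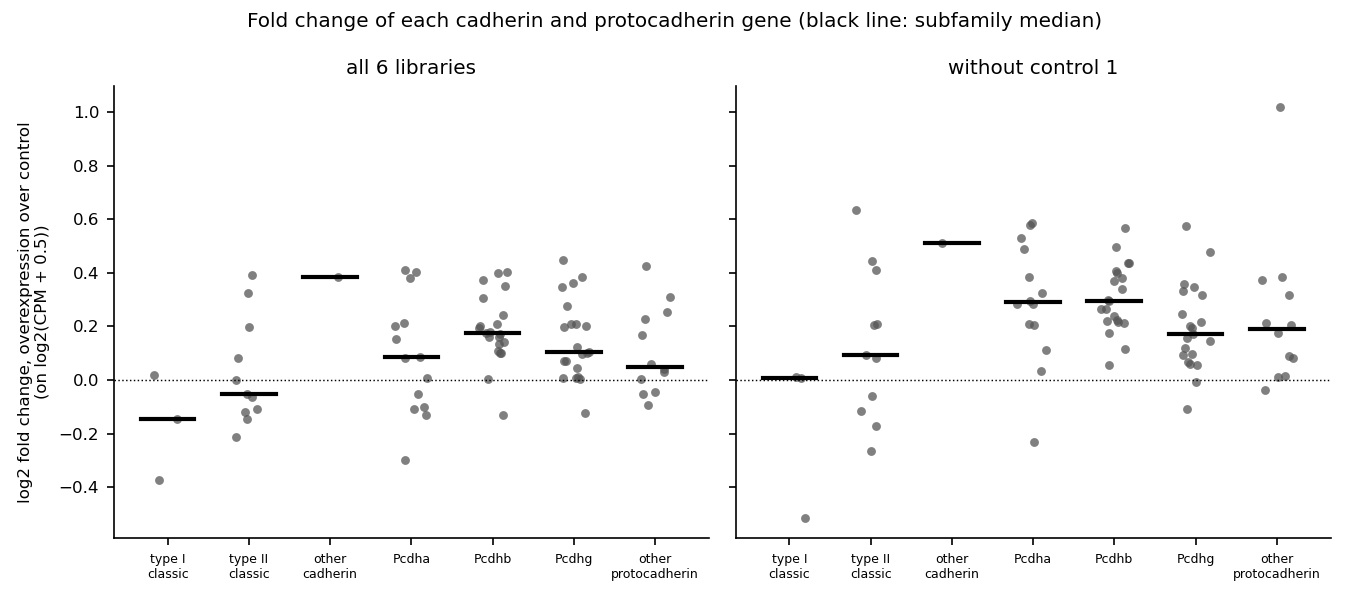
Log2 fold change of overexpression over control on log2(CPM + 0.5) for each of the 83 members (points), by subfamily with its median (black line), from all 6 libraries (left) and without control library 1 (right). *Pcdhb* lies above 0 for 20 of 21 genes on the left, and the type II median is -0.05 on the left and 0.10 on the right.

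The members also differed between libraries of the same group. Control library 1 held the highest value of 31 members (37.4%, against 17.8% of all genes), and control library 2 the lowest value of 43 (51.8%, against 22.8%). Overexpression library 3 held the highest value of 30 (36.1%, against 26.5%). Control libraries 1 and 2 are the pair with high *Xist*. Control library 1 was also the library with most pyramidal neuron marker RNA, and overexpression library 3 the one with least microglia marker RNA. The part of sex and of these cells in the members' values was not tested.

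**Figure D2:**
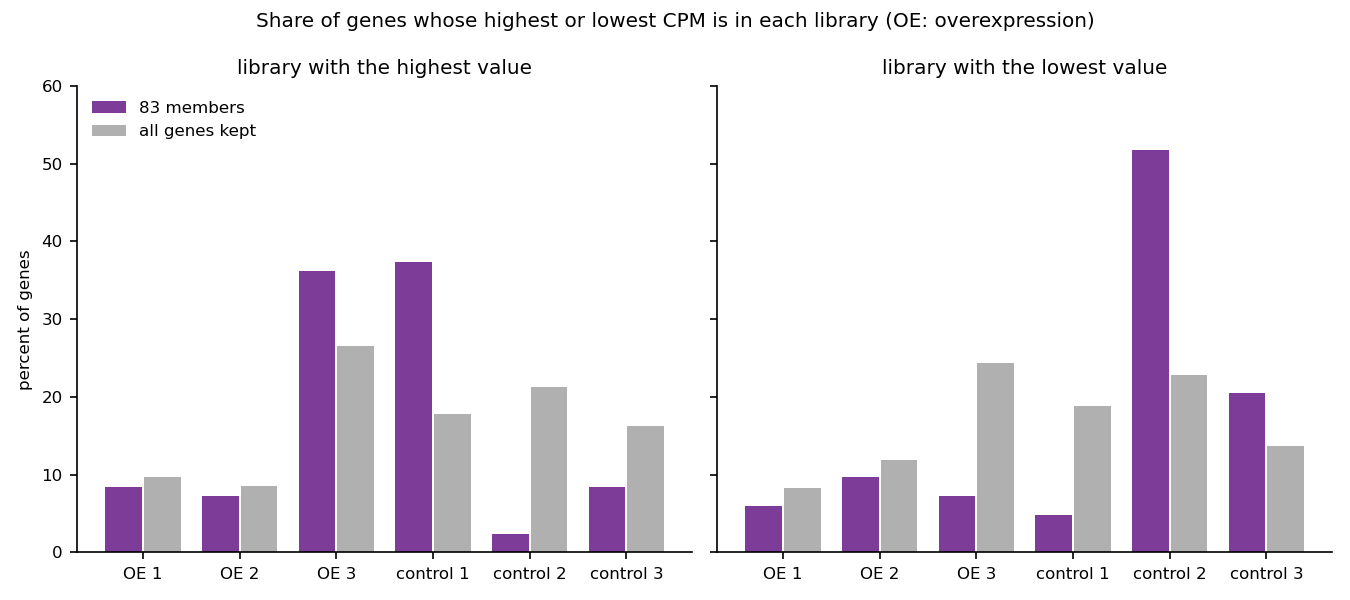
Percent of genes whose highest (left) or lowest (right) CPM falls in each library, for the 83 members (purple) and all 15102 genes kept (grey), overexpression (OE) libraries first. Members were most often highest in control library 1 (37.4%) and lowest in control library 2 (51.8%).

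Among type I classic cadherins, *Cdh2* (N-cadherin), which joins neural progenitors and synapses, was the most abundant member of the family. It had 361, 369 and 414 CPM in overexpression libraries, against 371, 374 and 382 CPM in control libraries (chr18:16588877-16809246, GRCm38). The control libraries lay within the range of the overexpression libraries, and the log2 fold change was 0.02 ± 0.06 (SE, adjusted p = 0.955, limma). Per kilobase of exon, *Cdh2* averaged 47.2 CPM in overexpression and 46.6 CPM in control libraries, and *Cdh24*, the next among cadherins and non-clustered protocadherins, averaged 14.2 and 13.4 CPM.

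*Cdh4* (R-cadherin), known from retina and axon growth, had 65.4, 65.5 and 58.2 CPM in overexpression libraries, against 86.6, 65.9 and 59.2 CPM in control libraries. Control library 1 stood above all others, the log2 fold change was -0.14 ± 0.13 (SE), and without that library it was 0.01. *Cdh1* (E-cadherin), the epithelial cadherin, was the scarcest classic cadherin, with 0.625, 0.448 and 0.543 CPM in overexpression libraries, against 0.602, 0.896 and 1.07 CPM in control libraries. As few as 10 reads stood behind a value, and the log2 fold change was -0.37 ± 0.21 (SE, adjusted p = 0.788, limma).

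*Cdh8*, a type II cadherin expressed by subsets of neurons in the developing striatum and cortex, had 95.2, 74.0 and 86.1 CPM in overexpression libraries, against 121, 79.7 and 78.7 CPM in control libraries (chr8:99024471-99416471, GRCm38). Control library 1 was above every other library, and control libraries 2 and 3 lay inside the overexpression range. The log2 fold change was -0.11 ± 0.17 (SE, adjusted p = 0.884, limma) and 0.10 without control library 1, so the direction rests on 1 library. *Cdh11*, first known from osteoblasts and mesenchyme and present in developing brain, had 40.7, 45.0 and 50.7 CPM in overexpression libraries, against 60.4, 38.1 and 40.4 CPM in control libraries. Control library 1 was again the highest, while control libraries 2 and 3 lay just below all overexpression libraries. Its log2 fold change was -0.0007 ± 0.17 (SE) and 0.20 without control library 1.

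*Cdh10*, *Cdh12* and *Cdh9*, type II cadherins of neurons, were likewise highest in control library 1, which held the highest value of 5 of the 11 type II genes. *Cdh10* had 8.36, 8.02 and 8.83 CPM in overexpression libraries, against 12.7, 7.56 and 6.84 CPM in control libraries. *Cdh24*, a catenin-binding type II cadherin, was the most abundant type II member per length, at 14.2 CPM per kilobase in overexpression and 13.4 in control libraries. It had 46.8, 45.9 and 55.9 CPM in overexpression libraries, against 46.6, 44.8 and 48.4 CPM in control libraries, which overlapped.

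*Cdh22*, a type II cadherin of brain and pituitary, was the only classic cadherin whose groups did not overlap. It had 9.10, 10.8 and 10.4 CPM in overexpression libraries, against 8.12, 7.21 and 7.33 CPM in control libraries (chr2:165111507-165234853, GRCm38). Every overexpression library was above every control library, and the log2 fold change was 0.39 ± 0.11 (SE, unadjusted p = 0.00868, adjusted p = 0.788, limma). Leaving out any 1 library kept it between 0.34 and 0.46, and against control library 3 alone it was 0.43.

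*Cdh13* (T-cadherin), an unusual cadherin held in the membrane by a lipid anchor with no cytoplasmic tail, had 63.9, 53.1 and 52.2 CPM in overexpression libraries, against 51.1, 44.3 and 34.9 CPM in control libraries (chr8:118283733-119324921, GRCm38). The lowest overexpression library was above the highest control library by about 1 CPM. The log2 fold change was 0.38 ± 0.14 (SE, unadjusted p = 0.0254, adjusted p = 0.788, limma). Against control library 3 alone, which shares a low *Xist* level with the overexpression libraries, it was 0.68. That value rests on 1 control library, which was the lowest library for *Cdh13*. *Cdh5* (VE-cadherin), the cadherin of endothelial junctions, had 14.9, 13.2 and 14.2 CPM in overexpression libraries, against 14.2, 15.4 and 16.52 CPM in control libraries. Its log2 fold change was -0.12 ± 0.10 (SE), beside a summed 146 to 154 CPM of the 7 endothelial markers in overexpression libraries and 158 to 162 CPM in control libraries.

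**Figure D3:**
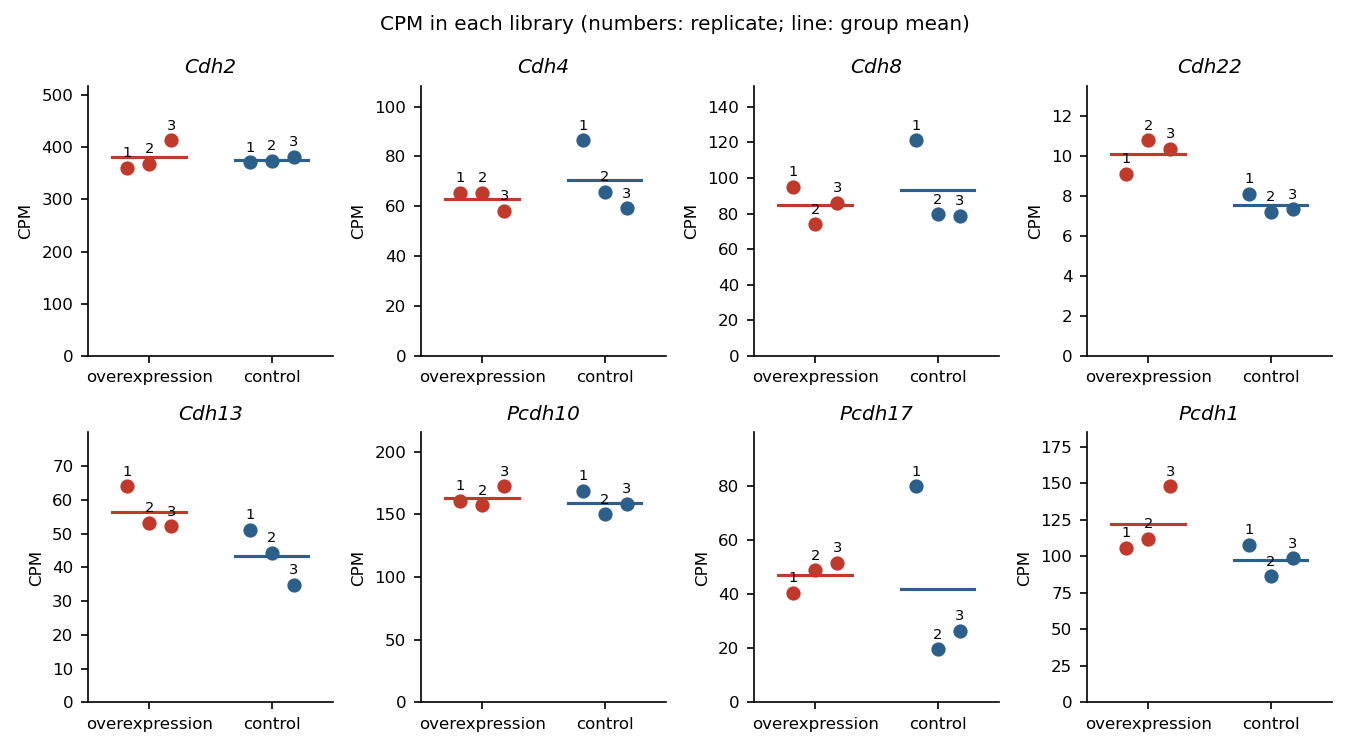
CPM of 8 members in each library, with overexpression libraries (red) left of control libraries (blue), the replicate number above each point and a line at the group mean. Control library 1 stands above every other library for *Cdh4*, *Cdh8* and *Pcdh17*, while the groups are apart for *Cdh22* and *Cdh13*.

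The clustered protocadherins lie side by side on chromosome 18 (GRCm38), *Pcdha* at chr18:36930184-37187661, *Pcdhb* at chr18:37294812-37524479 and *Pcdhg* at chr18:37661793-37841873. In *Pcdha* and *Pcdhg* each gene has its own first exon and shares the last exons with all others of its cluster, and the median gene shared 53.4% and 44.6% of its exon bases with other members. The rule for assigning reads on shared exons is not stated in the paper or labels, so values of single *Pcdha* and *Pcdhg* genes are uncertain. *Pcdhb* genes have no such shared exons (median 0% of bases shared, at most 9.67%). Gene levels within *Pcdha* and *Pcdhg* are therefore given in CPM and as a share of the cluster's CPM, not per length.

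*Pcdha* genes showed the widest swings between control libraries. Their summed level was 113, 110 and 121 CPM in overexpression libraries, against 136, 78.3 and 102 CPM in control libraries. The overexpression libraries lay inside the control range, and the means were 115 ± 5.71 CPM and 105 ± 29.1 CPM (SD, n = 3 each). Control library 1 was highest for 10 of the 14 genes and control library 2 lowest for 11. Among all genes these shares were 17.8% and 22.8%.

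*Pcdhac2*, a C-type isoform needed in serotonergic axons for their even spacing, made up 22.1 ± 1.58% of the cluster's CPM in overexpression libraries and 22.2 ± 3.60% in control libraries (SD, n = 3 each). It had 25.4, 25.7 and 24.6 CPM in overexpression libraries, against 27.6, 20.7 and 20.3 CPM in control libraries, with a log2 fold change of 0.15 ± 0.12 (SE). *Pcdha9* was the only *Pcdha* gene whose groups did not overlap, with 9.96, 8.38 and 10.2 CPM in overexpression libraries, against 7.87, 5.62 and 7.77 CPM in control libraries. Its log2 fold change was 0.41 ± 0.16 (SE, unadjusted p = 0.0298, adjusted p = 0.788, limma), and as few as 113 reads stood behind a value.

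*Pcdha3* had 11.96, 9.95 and 14.4 CPM in overexpression libraries, against 11.7, 5.77 and 10.5 CPM in control libraries, and *Pcdha12* had 10.8, 7.30 and 11.4 CPM against 7.37, 6.82 and 7.77 CPM. Both overlapped, with log2 fold changes of 0.40 ± 0.25 and 0.38 ± 0.17 (SE). *Pcdha5* had 9.06, 8.60 and 8.64 CPM in overexpression libraries, against 11.7, 5.37 and 8.84 CPM in control libraries. All 3 overexpression libraries sat between control libraries 1 and 2, as the whole cluster did. *Pcdha1* and *Pcdha8* were the scarcest members of the clusters, at 0.844 ± 0.423 and 0.622 ± 0.134 CPM in overexpression libraries and 1.11 ± 0.903 and 0.877 ± 0.1602 CPM in control libraries (SD, n = 3 each). As few as 4 and 12 reads stood behind a value of each. The table has 2 rows named *Pcdha11*, of which the first along the chromosome lies where RefSeq places *Pcdha10*, and neither had an unadjusted p under 0.05.

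*Pcdhb* genes, which code for isoforms without a shared cytoplasmic constant region, had a summed level of 109, 122.5 and 150 CPM in overexpression libraries, against 126, 97.7 and 102 CPM in control libraries. Overexpression library 3 was highest and the others overlapped with control library 1, with means of 127 ± 20.6 CPM and 109 ± 15.4 CPM (SD, n = 3 each). Overexpression library 3 held the highest value of 14 of the 21 genes, and control libraries 2 and 3 the lowest value of 8 and 10. Without control library 1, all 21 were higher by value. Against control library 3 alone all 21 were too, but this rests on 1 control library, the lowest of all for 10 of these genes. That library also had the least pyramidal neuron marker RNA (11.7 CPM), and the part of such cells was not tested. Without overexpression library 3, 15 of 21 were higher and the median was 0.07.

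*Pcdhb7* was the 1 *Pcdhb* gene with an unadjusted p under 0.05, with 11.4, 12.5 and 13.3 CPM in overexpression libraries, against 10.3, 9.06 and 8.92 CPM in control libraries. The groups did not overlap, and the log2 fold change was 0.37 ± 0.11 (SE, unadjusted p = 0.00906, adjusted p = 0.788, limma). *Pcdhb4* and *Pcdhb12* did not overlap either, at log2 fold changes of 0.19 ± 0.13 and 0.31 ± 0.17 (SE), with at least 79 and 26 reads behind each value. *Pcdhb13* was the only *Pcdhb* gene lower by value, with 1.49, 1.12 and 1.77 CPM in overexpression libraries, against 2.91, 1.14 and 1.199 CPM in control libraries.

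Per kilobase of exon, *Pcdhb17* was the most abundant *Pcdhb* gene, at 3.64 CPM in overexpression and 3.20 CPM in control libraries, followed by *Pcdhb7* at 3.53 and 2.70 CPM and *Pcdhb20* at 2.86 and 2.45 CPM. *Pcdhb17* itself had 13.8, 17.1 and 20.0 CPM in overexpression libraries, against 17.4, 12.2 and 15.1 CPM in control libraries, so the groups overlapped. *Pcdhb19* and *Pcdhb22* had 12.3 ± 2.65 and 13.0 ± 2.41 CPM in overexpression libraries and 9.37 ± 0.581 and 11.5 ± 1.18 CPM in control libraries (SD, n = 3 each). For both, overexpression library 3 was the highest of all 6 libraries, at 15.0 and 15.7 CPM.

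*Pcdhg* genes held most clustered protocadherin RNA, with summed levels of 732, 711 and 765 CPM in overexpression libraries, against 739, 623 and 704 CPM in control libraries. Control library 2 was the lowest of all and was the lowest library of 14 of the 21 genes. The C-type genes *Pcdhgc3*, *Pcdhgc4* and *Pcdhgc5* together made up 54.3 ± 0.18% of the cluster's CPM in overexpression libraries and 55.5 ± 1.501% in control libraries (SD, n = 3 each). *Pcdhgc3* alone had 233, 236 and 259 CPM in overexpression libraries, against 238, 213 and 225 CPM in control libraries, a log2 fold change of 0.11 ± 0.06 (SE). *Pcdhgc4*, the isoform on which the survival of many neurons depends in mice, had 150, 137 and 143 CPM in overexpression libraries, against 159, 130 and 138 CPM in control libraries. Its log2 fold change was 0.01 ± 0.08 (SE), with the overexpression values inside the control range.

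The *Pcdhga* and *Pcdhgb* genes summed to 336, 325 and 348 CPM in overexpression libraries, against 326, 270 and 326 CPM in control libraries, and 17 of these 18 genes were higher by value, or 13 of 18 against control library 3 alone. Of the 21 *Pcdhg* genes, 5 were higher at an unadjusted p under 0.05 (limma), beside 2.68% of all genes. The groups did not overlap for 6, all higher, beside 5.46% of all genes. All of these were A or B types, as 18 of the 21 genes are. Genes of this cluster share exons, so these counts are not independent of each other. *Pcdhga8* had the lowest unadjusted p of the members by limma, with a log2 fold change of 0.45 ± 0.13 (SE, unadjusted p = 0.00836, adjusted p = 0.788, limma). It had 15.3, 15.6 and 15.1 CPM in overexpression libraries, against 13.4, 9.502 and 10.8 CPM in control libraries, so the overexpression libraries lay within 0.5 CPM of each other and above all controls.

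*Pcdhgb5* had 15.1, 13.0 and 12.7 CPM in overexpression libraries, against 11.7, 8.96 and 10.3 CPM in control libraries. *Pcdhga1*, the first gene of the cluster, had 7.31, 8.51 and 7.56 CPM in overexpression libraries, against 5.67, 5.77 and 6.39 CPM in control libraries. The next gene, *Pcdhga2*, had 14.8, 12.8 and 14.0 CPM in overexpression libraries, against 10.8, 9.20 and 12.6 CPM in control libraries, and here too the groups were apart. *Pcdhga4* had 25.3, 24.1 and 26.5 CPM in overexpression libraries, against 23.3, 20.9 and 21.6 CPM in control libraries. In these 4 genes all overexpression libraries were above all control libraries, with log2 fold changes of 0.39 ± 0.13, 0.36 ± 0.12, 0.35 ± 0.13 and 0.20 ± 0.08 (SE) and an adjusted p of 0.788 for each (limma).

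Against control library 3 alone, *Pcdhga2* came to 0.13 and *Pcdhga1* to 0.26 on the log2 scale. *Pcdhga11* was the only *Pcdhg* gene with a negative log2 fold change by limma (-0.12 ± 0.11, SE). It had 37.0, 34.5 and 39.4 CPM in overexpression libraries, against 41.0, 34.6 and 45.8 CPM in control libraries. *Pcdhga3* and *Pcdhga12* had limma log2 fold changes of 0.0029 and 0.008. Their mean CPM was nonetheless lower in overexpression libraries, at 15.9 against 16.2 and 18.5 against 19.0 CPM. *Pcdhgb6* had 39.3, 37.7 and 39.9 CPM in overexpression libraries, against 41.4, 26.2 and 34.9 CPM in control libraries. Its overexpression values differed little, while its controls spanned both sides of them, as for *Pcdha5*.

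**Figure D4:**
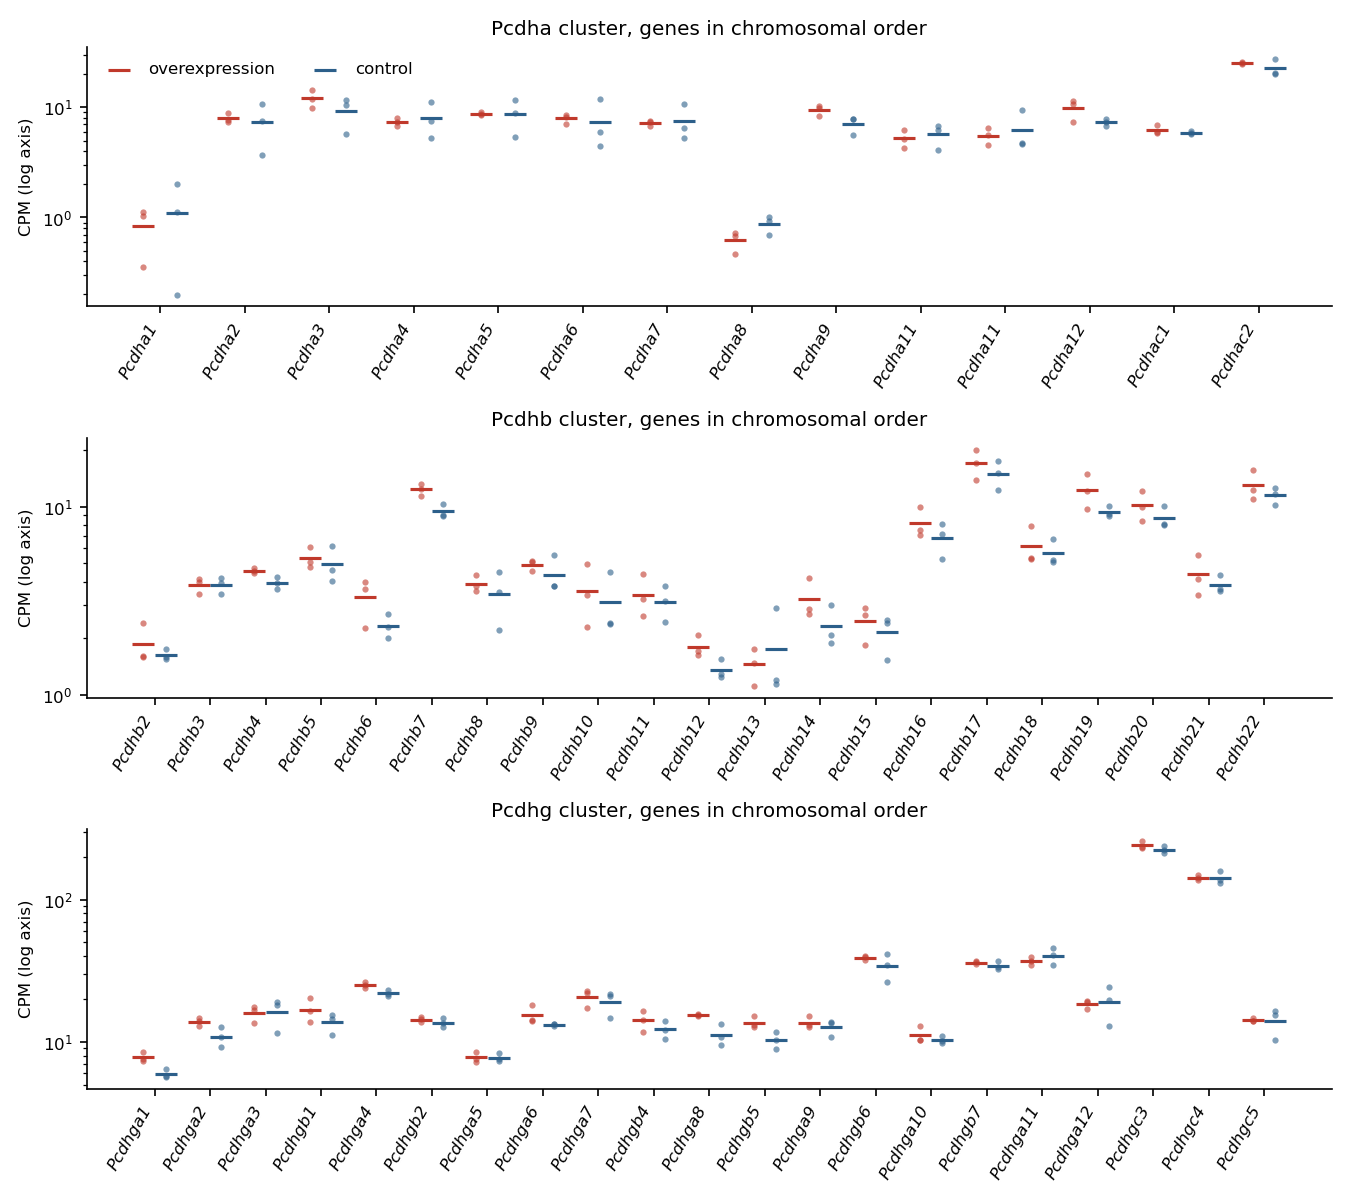
CPM (log axis, not scaled by length) of every clustered protocadherin in chromosomal order, with overexpression libraries (red) left of control libraries (blue), points for libraries and dashes for group means. The C-type genes *Pcdhgc3* and *Pcdhgc4* stand at 242 and 143 CPM on average in overexpression libraries and 225 and 143 CPM in control libraries, and the 2 rows named *Pcdha11* are shown in order.

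Among the other protocadherins, *Pcdh17*, which marks zones of the basal ganglia and their cortical inputs, had the widest spread between control libraries of any member (SD 1.05 on the log2 scale). It had 40.6, 48.8 and 51.7 CPM in overexpression libraries, against 79.8, 19.7 and 26.5 CPM in control libraries (chr14:84443563-84539002, GRCm38). The overexpression libraries were close together and fell between control library 1 and the other controls, so the groups overlapped. The log2 fold change was 0.43 ± 0.44 (SE, adjusted p = 0.835, limma), but 0.16 by edgeR and 0.16 by DESeq2. The group means were 47.0 CPM in overexpression and 42.0 CPM in control libraries. Without control library 1 the limma value was 1.02, with an adjusted p of 0.0926, the lowest of any member in that fit. Without control library 2 it was 0.02.

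*Pcdh10*, required for the outgrowth of striatal axons in mice, was the most abundant other protocadherin in CPM and among the steadiest. It had 161, 157 and 172 CPM in overexpression libraries, against 169, 150 and 158 CPM in control libraries (chr3:45378398-45435623, GRCm38). The groups overlapped, and the log2 fold change was 0.04 ± 0.06 (SE, adjusted p = 0.884, limma).

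*Pcdh1*, best known from airway epithelium, had 106, 112 and 148 CPM in overexpression libraries, against 108, 86.3 and 98.6 CPM in control libraries. Control library 1 lay above overexpression library 1, so the groups overlapped, and overexpression library 3 was above all others. The log2 fold change was 0.31 ± 0.13 (SE, unadjusted p = 0.0480, adjusted p = 0.788, limma) and 0.16 at the lowest when 1 library was left out. *Pcdh8*, an activity-regulated protocadherin that draws N-cadherin into the cell, had 34.6, 39.8 and 43.2 CPM in overexpression libraries, against 41.1, 30.9 and 29.1 CPM in control libraries. Its log2 fold change was 0.23 ± 0.14 (SE) and 0.37 without control library 1.

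Per kilobase of exon, *Pcdh1* averaged 13.9 CPM in overexpression and 11.1 CPM in control libraries, *Pcdh10* 10.3 and 10.01 CPM, and *Pcdh8* 8.64 and 7.42 CPM. The CPM per kilobase of *Pcdh1* thus lay near that of *Cdh24*, and that of *Pcdh10* near that of *Cdh8*, at 11.0 and 12.1 CPM. *Pcdh15*, the tip-link protocadherin of hair cells, was among the lowest, at 0.312 CPM per kilobase in overexpression and 0.280 in control libraries.

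*Pcdh11x* and *Pcdh19* are X-linked, and *Pcdh19* is the gene of a human epilepsy that affects mainly heterozygous females. *Pcdh19* had 30.4, 26.9 and 25.5 CPM in overexpression libraries, against 30.8, 28.4 and 26.2 CPM in control libraries, and *Pcdh11x* had 4.85, 4.88 and 3.49 CPM against 7.32, 3.93 and 3.51 CPM. Control library 1, with high *Xist*, was highest for both, while control library 2, also with high *Xist*, lay within the range of the low *Xist* libraries. The log2 fold changes were -0.04 ± 0.09 and -0.09 ± 0.26 (SE). The delta-1 protocadherins, which carry a binding motif for protein phosphatase, had 3 of 5 genes higher by value and the delta-2 protocadherins, a group with *Pcdh10*, *Pcdh17* and *Pcdh19*, 4 of 5. Their medians were 0.06 and 0.04 on the log2 scale.

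**Figure D5:**
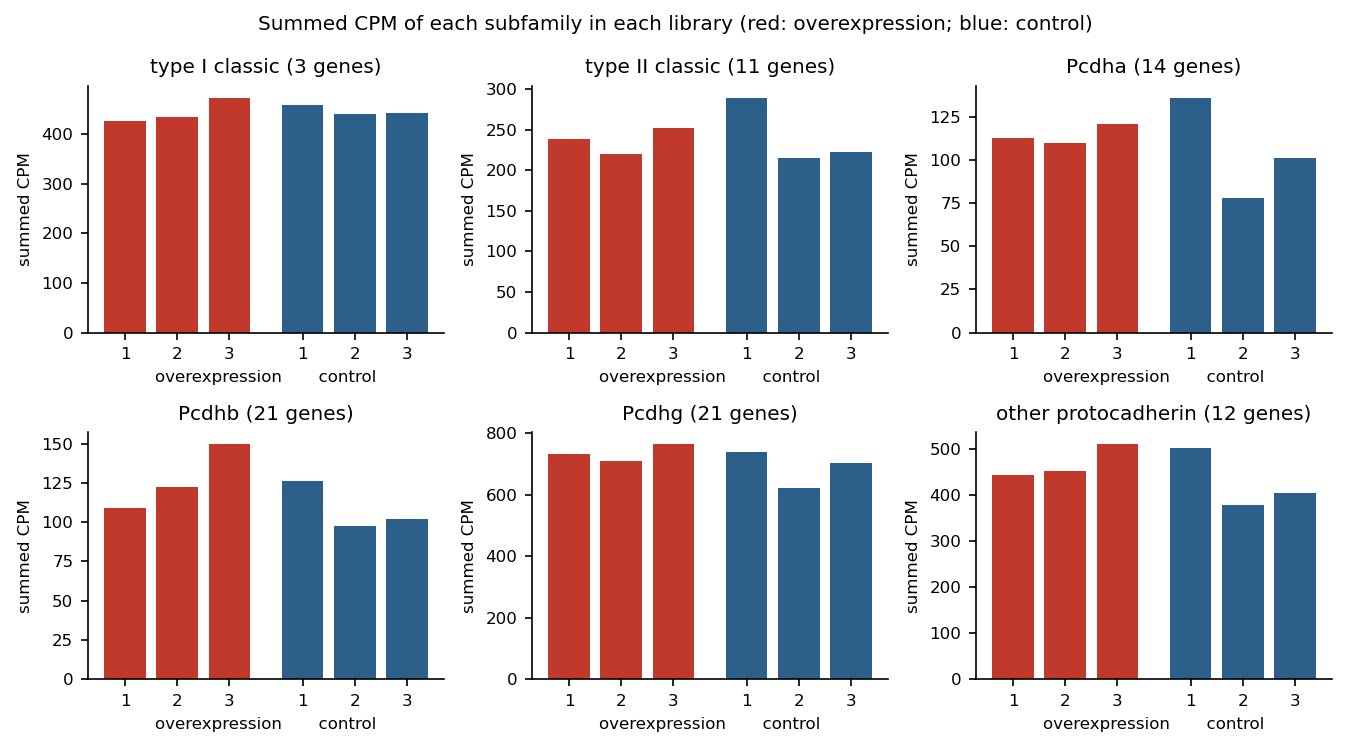
Summed CPM of 6 subfamilies in each library, with overexpression libraries (red) left of control libraries (blue). *Pcdha* sums to 110 to 121 CPM in overexpression libraries and to 78.3 to 136 CPM in control libraries, whereas type I cadherins stay between 427 and 473 CPM in all 6.

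The 10 members with an unadjusted p under 0.05 were *Pcdhga8*, *Cdh22*, *Pcdhb7*, *Pcdhgb5*, *Pcdhga1*, *Cdh13*, *Pcdhga2*, *Pcdha9*, *Pcdhga4* and *Pcdh1*, and 8 of them lie on chromosome 18, as 59 of the 83 members do. Apart from *Pcdh1*, the groups of these members did not overlap. Leaving out any 1 library, or keeping control library 3 alone, therefore could not turn their direction. *Pcdh1*, whose groups overlapped, had a log2 fold change of at least 0.16 with 1 library left out and 0.29 against control library 3 alone. The count of members under that p moved with 3 libraries, to 6 without overexpression library 3, 17 without control library 1 and 5 without control library 2. It also moved with the *Xist* level as a covariate, as given in the section on processing. In the fit without overexpression library 3, 1.44% of all genes were higher and 1.45% lower at that p, and in the fit without control library 2, 1.3% were higher and 1.19% lower.

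None of the genes that work with cadherins passed the adjusted threshold by limma, edgeR or DESeq2. The counts by list below are a description of short lists, and no list was tested. Of 13 measured catenins and junction partners, 2 were higher and 0 lower at an unadjusted p under 0.05 (limma), beside 2.68% and 2.84% of all genes. The 2 were *Ctnna2*, the neuronal alpha-catenin that ties cadherins to actin, and *Afdn*, an actin-binding protein of junctions. *Ctnna2* had 253, 252 and 282 CPM in overexpression libraries, against 250, 223 and 231 CPM in control libraries (log2 fold change 0.16 ± 0.07, SE). *Afdn* had 278, 285 and 317 CPM against 263, 231 and 278 CPM (0.19 ± 0.08, SE). *Ctnnb1* (beta-catenin), the most abundant of them in CPM, had 1144, 1166 and 1141 CPM in overexpression libraries, against 1137, 1196 and 1180 CPM in control libraries.

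The 9 genes of the next list were long and seven-pass cadherins, which steer planar polarity and axon tracts, and *Fjx1*, whose *Drosophila* relative is a Golgi kinase of such cadherins. Of these, 2 were higher at an unadjusted p under 0.05 (limma) and 0 lower, beside 2.68% and 2.84% of all genes. *Fat1*, a giant cadherin, had 230, 229 and 259 CPM in overexpression libraries, against 211, 203 and 202 CPM in control libraries. *Celsr3*, needed for forebrain axon tracts, had 475, 482 and 560 CPM against 456, 403 and 455 CPM. The log2 fold changes were 0.22 ± 0.06 and 0.21 ± 0.08 (SE), and *Dchs1*, the ligand of *Fat4*, reached 0.17 ± 0.09 (SE) with groups that overlapped.

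Of 11 genes of protocadherin signalling, 1 was lower at an unadjusted p under 0.05 (limma), beside 2.84% of all genes. This was *Ptk2b*, the kinase Pyk2, with 4.49, 4.08 and 2.13 CPM in overexpression libraries, against 5.97, 5.72 and 4.71 CPM in control libraries (log2 fold change -0.60 ± 0.25, SE). Overexpression library 3, lowest for *Ptk2b*, was also lowest for all 6 microglia markers, and the part of these cells was not tested. Of 16 chromatin genes known for promoter choice and silencing in the clusters, 1 was higher at that p, beside 2.68% of all genes. This was *Wiz*, with 194, 186 and 198 CPM in overexpression libraries, against 178, 176 and 181 CPM in control libraries. *Rad21*, a cohesin subunit, and *Dnmt1*, the maintenance DNA methyltransferase, had log2 fold changes of -0.01 ± 0.06 and -0.01 ± 0.05 (SE). None of the 4 calsyntenins and other cadherin-repeat genes or of the 4 proteases that cut cadherins had an unadjusted p under 0.05.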

How the data were processed

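LGE was dissected at E16.5 and sequenced after a stranded total RNA preparation with removal of ribosomal RNA. The authors deposited 1 CPM value per gene and library, on an effective library size. The submitters' processing notes name mm10; the aligner, the counter and its strand setting were not given in the sources used here. Beside CPM, the table holds the authors' own fold changes, p-values and mean log2 CPM, which were not used. Within a library, 100% of values under 200 reads were whole multiples of 1 read (within 0.1 read), so reads could be recovered.

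Genes with at least 0.5 CPM in at least 3 libraries were kept (15102). limma 3.58.1 (R 4.3.3), with an intensity trend, was run on log2(CPM + 0.5), with group as its single term; p-values are two-sided and were adjusted by Benjamini and Hochberg across the kept genes (threshold 0.05). The fold change on this scale understates that of low genes. edgeR 4.0.16 (quasi-likelihood) and DESeq2 1.42.0 were run on recovered reads. Replicates differed beyond sampling noise (chi-square per degree of freedom 5.74 to 17.5). Exon lengths and gene positions come from GENCODE M21, promoters from RefSeq (GRCm38.p6). The fits were also run on simulated data, which are not used here as support for any result. The members and lists were chosen with earlier results of these data known. Named members are *Cdh8* and *Cdh2*, the 4 with the highest mean CPM of each subfamily, those with an unadjusted p under 0.05, the X-linked members and *Cdh5*; other members were named after their values were seen.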

Additional observations from a re-analysis of the deposited data

How the results depend on the processing

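No member passed the adjusted threshold under any alternative run (replicate block, each library left out, low-*Xist* libraries only, *Xist* as a covariate, edgeR, DESeq2, median-of-ratios scaling, a pseudocount of 0.1 or 1, no filter, or a filter at 1 CPM). Over all genes, DESeq2 called 34 and leaving out 1 library gave 3 to 15. Members at an unadjusted p under 0.05 numbered 5 to 17 higher and 0 to 1 lower with 1 library left out (lower: *Cdh1* without control library 1, *Pcdhga11* without control library 2). Of all genes, 1.3% were higher at that p in the fit with 5 members and 7.41% in the fit with 17. With the *Xist* covariate and all 6 libraries, 5 members were higher and 1 lower at that p (limma). The matching shares of all genes were not worked out for that fit. By value, 62 of 83 members were higher with the *Xist* covariate, beside 7407 of all 15102 genes. With low-*Xist* libraries only (the overexpression libraries against control library 3), 63 of 83 were higher, beside 7412 of all genes.

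Of the medians, that of type II cadherins was 0.10 both with low-*Xist* libraries only and with the covariate, and -0.10 to 0.10 with 1 library left out. That of the other protocadherins was 0.19 and 0.19, and 0.0044 to 0.19. With 1 library left out, the median was -0.18 (without control library 2) to 0.29 for *Pcdha*, 0.07 (without overexpression library 3) to 0.29 for *Pcdhb*, 0.0875 to 0.19 for *Pcdhg* and -0.26 to 0.0091 for type I cadherins (-0.0067 with low-*Xist* libraries only), and *Cdh13* was 0.24 to 0.51. *Cdh13* was 0.68 with low-*Xist* libraries only and 0.68 with the covariate. The lists that follow cover only the members picked by the naming rule above. Other members also turned or spanned 0, such as *Cdh10* (-0.22 to 0.21 with 1 library left out) and *Pcdhb13* (-0.31 to 0.21). Directions turned with low-*Xist* libraries only and with the covariate for *Cdh2* (-0.0067 and -0.0059), *Cdh4* (0.0872 and 0.0969), *Cdh8* (0.10 and 0.10), *Cdh11* (0.16 and 0.18), *Pcdha5* (-0.0104 and -0.0154), *Pcdh11x* (0.28 and 0.29) and *Pcdh19* (0.0687 and 0.0673). With 1 library left out, log2 fold changes spanned 0 for *Cdh2* (-0.0434 to 0.0561), *Cdh4* (-0.26 to 0.0111), *Cdh8* (-0.22 to 0.10), *Cdh11* (-0.12 to 0.20), *Cdh24* (-0.0061 to 0.13), *Pcdha5* (-0.21 to 0.32), *Pcdhgc4* (-0.0527 to 0.0918), *Pcdh10* (-0.0015 to 0.0834), *Pcdh11x* (-0.28 to 0.21) and *Pcdh19* (-0.11 to 0.0124). The cause was not tested.

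Deviations of same-numbered libraries correlated at -0.10, 0.20 and 0.08, so the numbers were not taken to pair libraries. As a replicate block they gave 3 genes called and 0 members called. With 3 libraries a group, 2 of the controls differing in *Xist* from the rest, small differences in these genes could not be resolved.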
